A study of Mus musculus with 6 samples.

Results

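Collagen genes were examined in endothelial cells sorted from the bone marrow of diabetic and nondiabetic mice. They were defined by symbol: every gene written as Col, a number, a, and a number, and named alone by at least 1 probe set of the array, which gave 44 collagen genes among 22180 genes. Where several probe sets name a gene alone, the brightest one stood for it, judged on the mean of the 6 arrays. The diabetic group held 3 arrays, from male C57BL/6J mice in which a high fat diet had brought on diabetes, and the nondiabetic group held 3 arrays, from male C57BL/6J mice labelled as controls. A diet of 60 kcal% fat over 4 months is given for all 6 samples, diabetic and nondiabetic alike, and what the nondiabetic mice ate is thus not settled by the labels. Age and the number of mice behind an array were not given in the labels, so p-values reflect the spread among these samples alone, and that spread may be technical. Each sample was a sort of 5000 cells, and its RNA was amplified as a whole before hybridisation. Values are log2 expression made by the authors with RMA, a method that sets all arrays to a common distribution. Levels of different probe sets were not compared with each other.

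Collagens are proteins of 3 chains wound into a helix in which glycine recurs at regular steps. Type IV forms the sheet of the basement membrane beneath endothelium, type VI forms beaded filaments beside it, types XV and XVIII are heparan sulfate or chondroitin sulfate proteoglycans anchored in basement membranes, and types I, III and V form the fibrils of connective tissue. Marrow sinusoids have a thin, broken basement membrane, and arterioles of the marrow have a more complete one. Stromal cells and osteoblasts are the main makers of fibrillar collagen in the marrow.

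No collagen gene passed the test for a difference between diabetic and nondiabetic cells. A dim limit was set at the 40th percentile of the mean levels of all genes, 5.07 on the log2 scale, and 31 collagen genes lay above it and were tested while 13 lay below. At a limma adjusted p under 0.05, 0 collagen genes were called in either direction, and over all 13308 tested genes 1 was called, or 0.00751%, which was Rabggtb, a subunit of the enzyme that adds lipid anchors to Rab proteins. At an unadjusted limma p under 0.05 there was 1 collagen gene, Col6a3, higher in diabetic cells, against 4.25% of all tested genes (3.19% higher and 1.07% lower). The 3 diabetic arrays lay wholly above or below the 3 nondiabetic arrays for 5 of 31 collagen genes, against 7.95% of all tested genes (5.28% higher and 2.67% lower). These were Col6a3, Col18a1 and Col17a1, higher in diabetic cells, and Col11a2 and Col6a1, lower in diabetic cells. All values of these 5 genes lay between 5.31 and 6.47, not far above the dim limit of 5.07. Leaving out 1 array at a time gave 6 to 12 collagen genes without overlap. Separation is easier to reach with 5 arrays than with 6, and the share of all tested genes is not given here for 5 arrays. These counts thus have no background to be read against. By direction alone, 11 of the 31 collagen genes had higher and 20 had lower mean values in diabetic cells. The median difference, diabetic minus nondiabetic, was -0.07 on the log2 scale for them and 0.02 for all tested genes, of which 54% had higher values. Without diabetic replicate 1 the collagen median was 0.01, so its sign rested on that array.

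The 95% intervals of the limma fit, which are not adjusted for the number of genes, give the precision of these differences. For 29 of the 31 tested collagen genes the whole interval lay within 1 of 0 on the log2 scale. The exceptions were Col6a3, whose interval reached 1.17, and Col8a1, whose interval reached -1.05. The median tested gene had a standard error of 0.19, and the number of arrays limited this precision. Of the 31 genes, 20 had mean levels between the 40th and 60th percentiles. Their median within-group SD over all 31 was 0.17, against 0.24 for all tested genes. How closely probe set values near the dim limit follow the amount of RNA was not tested, so the intervals bound these values only.

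**Figure D1:**
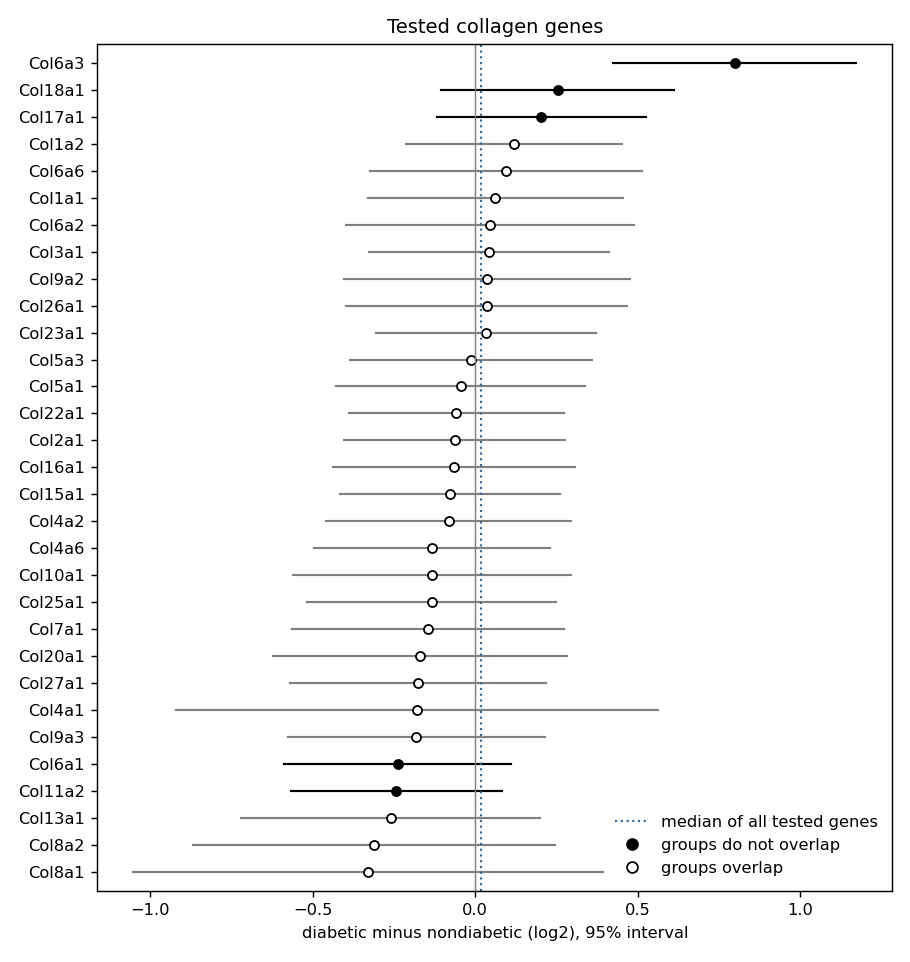
Differences of the 31 tested collagen genes, diabetic minus nondiabetic on the log2 scale, with 95% limma intervals as lines; filled points mark the 5 genes whose groups do not overlap, and the dotted line is the median of all tested genes. Col6a3 lies at 0.80 with an interval of 0.43 to 1.17, and all other intervals include 0.

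All 20 listed markers of endothelium were above the dim limit, and their mean per array was 9.53, 8.87 and 8.86 in diabetic cells and 9.15, 9.36 and 8.91 in nondiabetic cells. The groups overlapped, with diabetic replicate 1 the highest of the 6. Of 17 measured markers of mesenchymal stroma and osteoblasts, 9 were dim, among them the leptin receptor gene Lepr, Pdgfra and the matrix genes Dcn and Lum. The 8 tested ones were Cxcl12, Kitl, Alpl, Lpl, Ebf3, Foxc1, Bglap and Prrx1, of which Cxcl12 is also on the arteriolar list, and they averaged 6.66 to 7.35 in diabetic and 6.94 to 7.11 in nondiabetic arrays. Sinusoidal markers averaged 8.73, 8.26 and 8.16 in diabetic against 7.88, 7.71 and 7.75 in nondiabetic arrays, with no overlap. Arteriolar markers averaged 8.36, 7.80 and 7.69 against 8.32, 8.63 and 8.12, with overlap. Diabetic means were higher for 12 of 13 tested sinusoidal and 0 of 13 tested arteriolar markers, where 54% of all tested genes were higher. Markers of monocytes and macrophages averaged 7.42 to 7.66 in diabetic arrays and 6.88 to 7.29 in nondiabetic arrays, with no overlap, and those of neutrophils 7.41 to 7.45 and 6.71 to 7.24, also with no overlap. Higher diabetic means were found for 6 of 6 tested monocyte and macrophage markers and 7 of 7 of neutrophils. They were found for 6 of 20 of endothelium and 2 of 8 of stroma and osteoblasts. Of the tested markers, means were higher in diabetic cells for 6 of 6 of megakaryocytes, 4 of 7 of B and plasma cells, 2 of 5 of erythroid cells, 3 of 4 of adipocytes, 1 of 4 of Schwann cells and 2 of 3 of cartilage, and 0 passed the adjusted test. The part of these cell type markers in the collagen values was not tested, and in bulk samples fewer cells of a type and less RNA per cell cannot be told apart.

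Collagen VI held the collagen gene with the smallest p-value. Its filaments are built from a unit of an alpha 1, an alpha 2 and an alpha 3 chain, and Col6a3 encodes the long alpha 3 chain, whose cut-off end is the signaling fragment endotrophin. The promoter windows of Col6a3 and of Col6a1, the chains of this unit whose values lay in opposite directions, are shown 5′ to 3′ on the strand of the gene, from RefSeq, GRCm38.p6. The Col6a3 window is chr1:90843922-90844221 and the Col6a1 window chr10:76725995-76726294, both on the minus strand, and base 251 is the transcription start. The motif TATAAA, the motif CCAAT and the motif GGGCGG were searched on both strands and would stand in capitals, and neither window held any of them.
Col6a3: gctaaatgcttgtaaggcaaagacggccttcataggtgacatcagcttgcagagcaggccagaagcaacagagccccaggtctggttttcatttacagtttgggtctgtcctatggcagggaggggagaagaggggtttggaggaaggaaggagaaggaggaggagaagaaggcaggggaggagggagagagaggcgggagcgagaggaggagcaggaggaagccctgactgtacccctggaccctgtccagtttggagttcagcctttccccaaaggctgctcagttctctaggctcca
Col6a1: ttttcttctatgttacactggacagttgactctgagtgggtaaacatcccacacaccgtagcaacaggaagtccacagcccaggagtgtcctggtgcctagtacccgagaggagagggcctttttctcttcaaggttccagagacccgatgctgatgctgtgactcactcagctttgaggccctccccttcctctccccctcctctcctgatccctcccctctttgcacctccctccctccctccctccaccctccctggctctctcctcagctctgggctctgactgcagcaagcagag
Each of these windows held 3 CpG sites, and the median of all 32851 promoter windows in the table was 7. The motif TATAAA was found in 13.6% of all windows, CCAAT in 37.4% and GGGCGG in 35.7%.

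Col6a3 had log2 values of 6.20, 6.47 and 6.24 in diabetic cells, against 5.66, 5.52 and 5.33 in nondiabetic cells. All diabetic arrays were higher, and the lowest of them exceeded the highest nondiabetic array by more than the range within either group. Diabetic cells averaged 6.30 ± 0.14 and nondiabetic cells 5.50 ± 0.16 (SD, n = 3 each). Their difference was 0.80 (SE 0.16), which is 1.74-fold. Its limma unadjusted p was 0.00113, the 11th smallest of the 13308 tested genes by rank, and its adjusted p was 0.997. The difference lay between 0.71 and 0.88 in the 14 alternatives that tested the gene, with adjusted p of 0.396 or above, and the filter at the 60th percentile left the gene out as dim.

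Col6a1, the alpha 1 chain, had values of 5.97, 5.92 and 5.85 in diabetic cells, against 6.10, 6.04 and 6.32 in nondiabetic cells. The diabetic arrays were lower without overlap, but the gap between the groups was smaller than the range of either of them, and the difference was -0.24 (SE 0.15, limma adjusted p = 0.997), or -0.15 without nondiabetic replicate 3. Col6a2, the alpha 2 chain, had 5.48, 5.26 and 5.60 in diabetic cells, against 5.73, 5.21 and 5.27 in nondiabetic cells. These overlapped, with a difference of 0.04 and a 95% interval of -0.40 to 0.49. Col6a1 and Col6a2 are neighbours on chromosome 10, and Col6a3 is on chromosome 1.

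Only the change between groups is read from a value of 1 chain minus another, and whether their probe sets respond alike was not tested. The value of Col6a3 minus that of Col6a1 was 0.23, 0.54 and 0.39 in diabetic arrays, against -0.45, -0.51 and -0.99 in nondiabetic arrays. The groups did not overlap, and the change was 1.04 on the log2 scale. This had to follow from the values above, with Col6a3 higher and Col6a1 lower in all diabetic arrays. The exact test below thus adds nothing for this pair. Col6a2 itself differed by 0.04, so its pair largely repeats the Col6a3 difference of 0.80. The value of Col6a3 minus that of Col6a2 was 0.72, 1.21 and 0.64 in diabetic arrays, against -0.08, 0.32 and 0.06 in nondiabetic arrays. The change was 0.75 for this pair. An exact permutation test, two-sided, gave p = 0.1 for each, the smallest that 3 arrays against 3 can give, and p = 0.25 after Benjamini and Hochberg adjustment over the 5 pairs of chains compared. The other pairs were Col4a1 with Col4a2, Col8a1 with Col8a2 and Col1a1 with Col1a2, and their changes were -0.10, -0.02 and -0.06, with exact p of 0.9, 1 and 0.6.

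Of the chains that can take the place of alpha 3 in collagen VI, Col6a6 was the only tested one. It had values of 5.26, 5.61 and 5.70 in diabetic cells, against 5.59, 5.23 and 5.46 in nondiabetic cells. The groups overlapped, with a difference of 0.09 and a 95% interval of -0.32 to 0.51. Col6a4 and Col6a5 were dim, and all their values lay between 4.17 and 4.77. These 3 genes lie next to each other on chromosome 9.

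**Figure D2:**
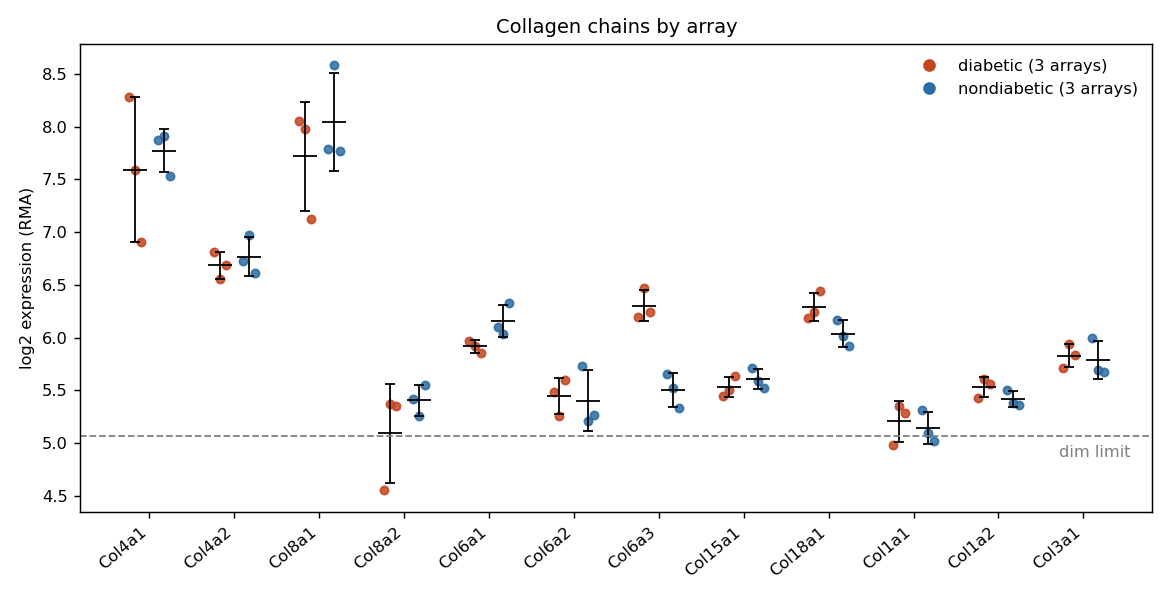
Log2 expression of 12 collagen chains, with 1 point per array, the mean as a short bar and the SD as error bars for diabetic and nondiabetic cells (n = 3 each); the dashed line is the dim limit of 5.07. For Col6a3 the diabetic points lie at 6.20 to 6.47 and the nondiabetic points at 5.33 to 5.66, while the points of Col4a1 spread from 6.91 to 8.28 within the diabetic group.

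Collagen IV, the network collagen of the basement membrane, was measured well above the dim limit by its main vascular chains Col4a1 and Col4a2. These genes lie head to head on opposite strands of chromosome 8, with start sites 21 bases apart in RefSeq, GRCm38.p6. The starts lie so that the 2 transcripts overlap at their 5′ ends, with no gap between them. The Col4a2 window, chr8:11312555-11312854 on the plus strand, is printed because it takes in both starts, and capitals mark GGGCGG and CCAAT on either strand.
Col4a2: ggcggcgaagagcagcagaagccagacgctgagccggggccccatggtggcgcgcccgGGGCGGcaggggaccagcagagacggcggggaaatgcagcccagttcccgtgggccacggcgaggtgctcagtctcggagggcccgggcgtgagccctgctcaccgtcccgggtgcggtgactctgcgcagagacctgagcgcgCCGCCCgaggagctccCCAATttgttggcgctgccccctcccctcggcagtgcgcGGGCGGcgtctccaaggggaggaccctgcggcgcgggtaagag
It held 4 such matches and 33 CpG sites. It shares 78 bases with the Col4a1 window on the opposite strand, and its bases before the Col4a2 start lie within the Col4a1 gene.

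Col4a1 had log2 values of 8.28, 7.59 and 6.91 in diabetic cells, against 7.87, 7.91 and 7.53 in nondiabetic cells. The nondiabetic arrays lay inside the range of the diabetic arrays, of which replicate 1 was the highest and replicate 3 the lowest of all 6. The difference was -0.18 (SE 0.32), with a 95% interval of -0.92 to 0.56. Leaving out diabetic replicate 3 made the difference 0.16, and leaving out diabetic replicate 1 made it -0.53. Col4a2 had 6.81, 6.56 and 6.69 in diabetic cells, against 6.72, 6.97 and 6.61 in nondiabetic cells. These overlapped too, with a difference of -0.08 and a 95% interval of -0.46 to 0.30. Within the diabetic group the values of Col4a1 spanned 1.38 and those of Col4a2 0.26 on the log2 scale. The within-group SD of Col4a1, 0.51, was larger than that of 92.7% of tested genes, and the SD of Col4a2, 0.16, was larger than that of 23.7%.

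Col4a6, a chain of smooth muscle and epithelial basement membranes, had 4.83, 5.14 and 5.18 in diabetic cells, against 5.18, 5.24 and 5.13 in nondiabetic cells. It lay next to the dim limit, and its difference was -0.13, which became -0.0236 when diabetic replicate 1 was left out. The alpha 3, alpha 4 and alpha 5 chains, which make up the basement membrane of the kidney filter, were dim: Col4a3, Col4a4 and Col4a5 had values of 4.44 to 5.17. In each of these 3 genes the groups overlapped.

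Collagen VIII, a short-chain network collagen of vascular walls, was measured by Col8a1 and Col8a2. Col8a1 had 8.05, 7.98 and 7.12 in diabetic cells, against 7.79, 8.58 and 7.77 in nondiabetic cells. The groups overlapped widely, with diabetic replicate 3 lowest and nondiabetic replicate 2 highest, and the difference was -0.33 (SE 0.31). Leaving out diabetic replicate 3 gave -0.03, and leaving out nondiabetic replicate 2 gave -0.06. Col8a2 had 4.55, 5.37 and 5.35 in diabetic cells, against 5.41, 5.25 and 5.55 in nondiabetic cells. Its difference of -0.31 rested on diabetic replicate 1, which lay below the dim limit, and was -0.04 without it. Col10a1, the collagen of growth plate cartilage, had 5.76, 5.60 and 5.78 in diabetic cells, against 6.18, 5.63 and 5.73 in nondiabetic cells, with overlap.

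The multiplexins Col15a1 and Col18a1 encode basement membrane proteoglycans, and the end of the Col18a1 product is released as endostatin, an inhibitor of angiogenesis. Col18a1 had 6.18, 6.24 and 6.44 in diabetic cells, against 6.17, 6.02 and 5.92 in nondiabetic cells. The diabetic arrays were higher, with the lowest of them just above nondiabetic replicate 1, and the difference was 0.25 (SE 0.16, limma adjusted p = 0.997). Col15a1 had 5.45, 5.51 and 5.64 in diabetic cells, against 5.71, 5.59 and 5.52 in nondiabetic cells. These overlapped, with a difference of -0.08 and a 95% interval of -0.42 to 0.26.

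The fibrillar collagens of connective tissue and bone had values close to the dim limit. Col1a1, which with Col1a2 makes type I collagen, had 4.98, 5.35 and 5.29 in diabetic cells, against 5.32, 5.10 and 5.02 in nondiabetic cells. Col1a2 had 5.43, 5.61 and 5.56 in diabetic cells, against 5.50, 5.38 and 5.36 in nondiabetic cells. Col3a1, of type III collagen in vessel walls and reticular fibres, had 5.71, 5.94 and 5.84 in diabetic cells, against 5.99, 5.69 and 5.68 in nondiabetic cells. All 3 genes overlapped between the groups, with differences of 0.06, 0.12 and 0.04 and 95% intervals that reached at most 0.45 upward and -0.33 downward.

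Col11a2, a chain of cartilage collagen XI, had 5.39, 5.52 and 5.53 in diabetic cells, against 5.68, 5.72 and 5.78 in nondiabetic cells. The groups did not overlap, and the difference was -0.24 (SE 0.14, limma adjusted p = 0.997). Col27a1, another cartilage collagen, had 5.79, 6.24 and 6.10 in diabetic cells, against 6.22, 6.34 and 6.10 in nondiabetic cells, with overlap. Its difference was -0.18, and -0.0515 when diabetic replicate 1 was left out. Of the 11 fibrillar genes, 8 were tested, 3 with higher and 5 with lower diabetic means and a median difference of -0.03. The dim ones were Col5a2, Col11a1 and Col24a1. Col5a2, with a mean of 5.05, lay just outside the limit, and Col4a6, with a mean of 5.12, just inside.

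The FACIT collagens, which sit on the surface of fibrils, and the transmembrane collagens completed the family. Among FACIT genes Col9a3 had 5.22, 5.62 and 5.69 in diabetic cells, against 5.64, 5.73 and 5.71 in nondiabetic cells. Col20a1 had 5.71, 6.31 and 6.28 in diabetic cells, against 6.31, 6.17 and 6.33 in nondiabetic cells. Col16a1 had 4.91, 5.05 and 5.31 in diabetic cells, against 5.19, 5.08 and 5.20 in nondiabetic cells. In all 3 the groups overlapped and diabetic replicate 1 was the lowest of the 6 arrays. Their differences were -0.18, -0.17 and -0.07, and with that array left out they were -0.0379, 0.0238 and 0.0247. Of 9 FACIT genes 5 were tested, with 1 higher and 4 lower diabetic means.

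Col17a1, which anchors epithelial cells as part of hemidesmosomes, had 5.57, 5.59 and 5.60 in diabetic cells, against 5.46, 5.39 and 5.31 in nondiabetic cells. The diabetic arrays were higher without overlap, and the difference was 0.20 (SE 0.14, limma adjusted p = 0.997). Col13a1, of cell-matrix contacts and the neuromuscular junction, had 5.58, 5.85 and 6.19 in diabetic cells, against 6.26, 6.22 and 5.91 in nondiabetic cells. Col25a1, a collagen of neurons, had 5.55, 5.92 and 5.75 in diabetic cells, against 5.82, 5.77 and 6.04 in nondiabetic cells. Both overlapped, with differences of -0.26 and -0.13, which shrank to -0.11 and -0.0371 when diabetic replicate 1 was left out.

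Col7a1, of the anchoring fibrils under epithelia, had 5.47, 5.83 and 6.05 in diabetic cells, against 5.92, 5.95 and 5.91 in nondiabetic cells. Col26a1 had 6.21, 6.79 and 6.69 in diabetic cells, against 6.47, 6.60 and 6.51 in nondiabetic cells. In both, the nondiabetic arrays lay inside the range of the diabetic arrays. The other 6 tested genes, Col2a1, Col5a1, Col5a3, Col9a2, Col22a1 and Col23a1, differed by -0.06 to 0.04, with overlap in each. The 13 dim genes had values between 3.73 and 5.17 and differences between -0.20 and 0.12, and in each of them the groups overlapped.

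For 3 genes a second probe set named the gene alone, Col1a2, Col5a1 and Col6a1, and each second probe set was dim. Its difference was 0.12 for Col1a2 and -0.18 for Col6a1, the same direction as the brighter probe set, but with overlap in both. For Col1a2 the second probe set had 4.15, 5.50 and 4.13 in diabetic cells, against 4.94, 4.38 and 4.09 in nondiabetic cells. The sign of that difference rested on diabetic replicate 2. For Col5a1 the second probe set had 4.30, 4.96 and 4.93 in diabetic cells, against 4.99, 5.43 and 4.91 in nondiabetic cells, a difference of -0.38, where the brighter one differed by -0.05. A further probe set named Col6a1 together with 3 other genes, among them the ribosomal protein gene Rps21, and was not used.

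Many collagen genes had low values in 1 array, diabetic replicate 1. Of the 44 collagen genes 26 had their lowest value in diabetic replicate 1, or 59.1%, against 23.3% of all 22180 genes. The share moved with level in all genes. Between the 40th and 60th percentiles, 13 of 20 collagen genes, or 65%, and 30.2% of all genes were lowest in that array. Above the 60th percentile it was 5 of 11 collagen genes, 45.5%, and 6.86% of all genes. In that upper range the median gene lay 0.17 above its own mean in diabetic replicate 1, and the median collagen gene 0.07 below. This is a description, since genes on 1 array are not independent.

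**Figure D3:**
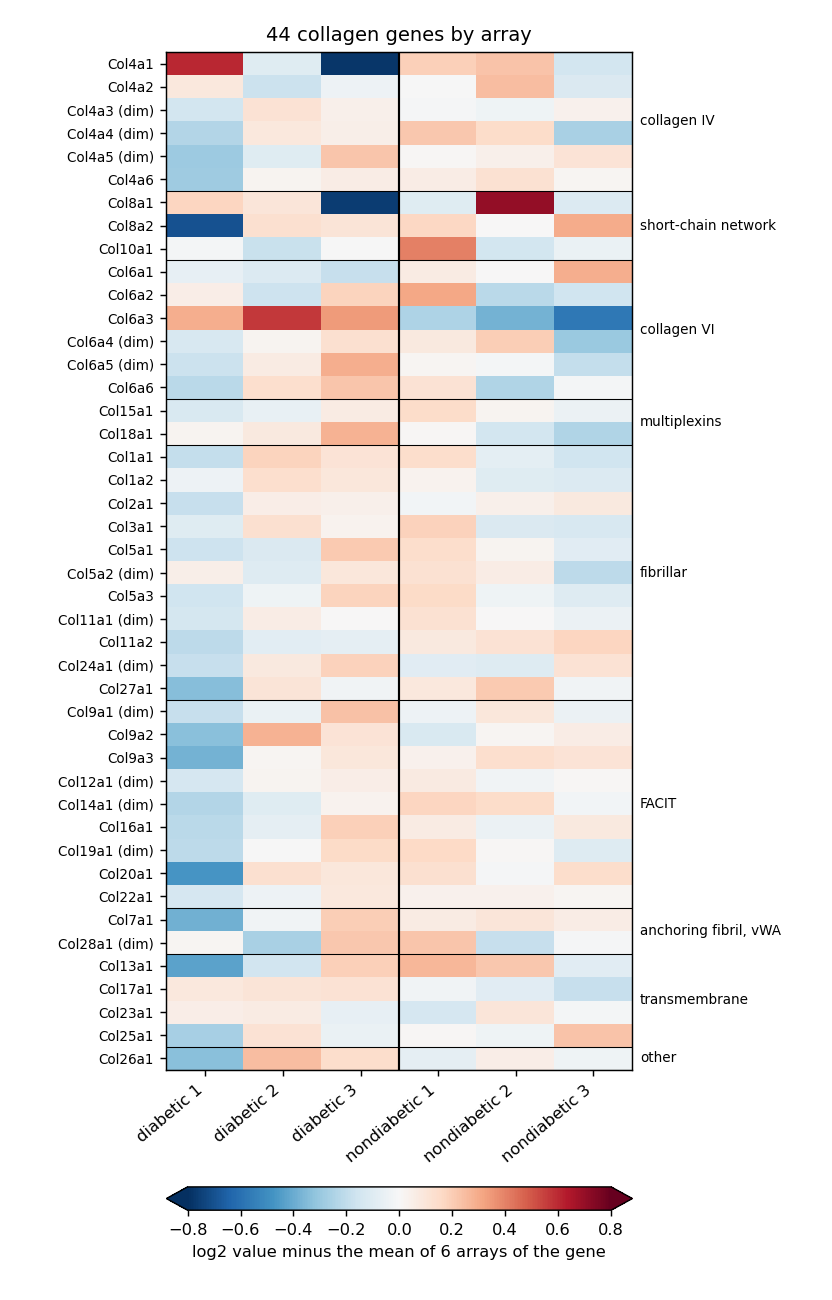
Each row is 1 of the 44 collagen genes, ordered by structural class, and each column 1 array; colour gives the log2 value minus the mean of the 6 arrays, with the scale ending at 0.8 in either direction. The row of Col6a3 is red in all diabetic and blue in all nondiabetic arrays, and diabetic replicate 1 holds the lowest value of 26 of the 44 genes.

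**Figure D4:**
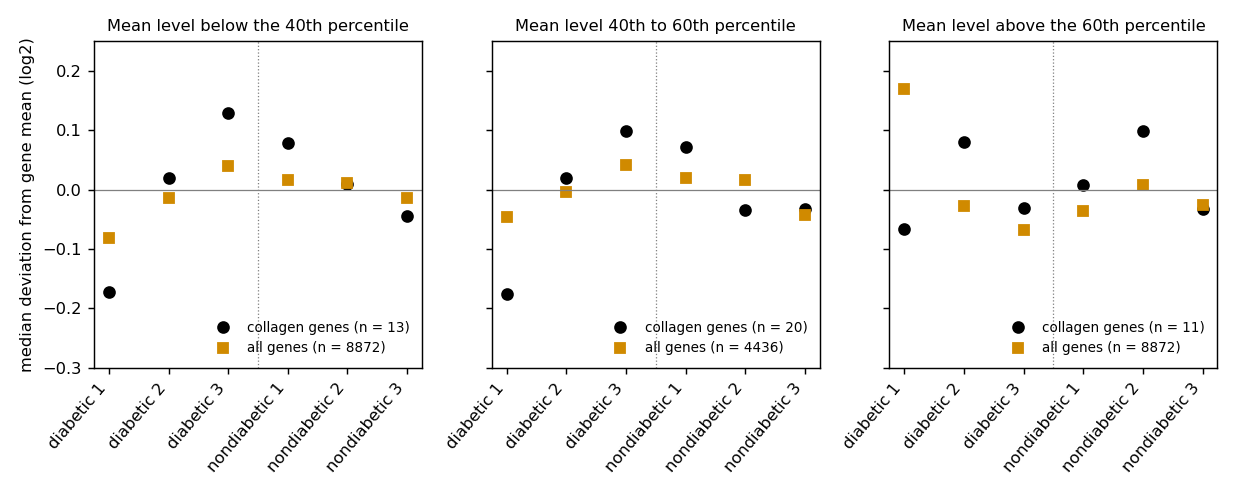
Median deviation of genes from their own mean over 6 arrays, by array, for collagen genes (circles) and all genes (squares) in 3 ranges of mean level. In diabetic replicate 1 the collagen median is -0.17, -0.18 and -0.07 from the lowest to the highest range, and the median of all genes is -0.08, -0.05 and 0.17.

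The genes that make, secrete, bind and degrade collagen were followed in the same fit, and 0 of them passed the adjusted test, with a smallest limma adjusted p of 0.997 in each list. Of 16 tested enzymes of collagen synthesis and folding 14 had higher and 2 lower diabetic means, where 54% of all tested genes were higher, and the median difference was 0.20. This median was 0.04 without diabetic replicate 1 and 0.37 without diabetic replicate 3. Colgalt1, which adds galactose to hydroxylysine in collagen, had 7.15, 7.21 and 7.53 in diabetic cells, against 6.76, 6.75 and 6.46 in nondiabetic cells. Its groups did not overlap, and the difference was 0.65 (SE 0.17). Crtap, a subunit of the prolyl 3-hydroxylase complex, had 7.26, 6.67 and 6.91 in diabetic cells, against 5.97, 6.67 and 6.45 in nondiabetic cells, a difference of 0.59 (SE 0.23), or 0.39 with nondiabetic replicate 1 left out. The groups did not overlap, but the lowest diabetic and the highest nondiabetic array were both at 6.67. Ppib, the cyclophilin of the same complex, differed by 0.04.

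Of 9 tested genes of maturation and cross-linking, 6 had higher and 3 lower diabetic means, with a median of 0.16. Loxl3, a lysyl oxidase that cross-links collagen, had 5.87, 6.24 and 6.00 in diabetic cells, against 5.39, 5.85 and 5.74 in nondiabetic cells, and differed by 0.38 (SE 0.18), or by 0.24 with nondiabetic replicate 1 left out. Bmp1, the protease that trims the end of procollagens, differed by 0.20 (SE 0.14). In neither gene did the groups overlap. The transglutaminase gene Tgm2 differed by -0.07, and Lox was dim. Loxl1 and Loxl4 were above the dim limit and differed by 0.22 and 0.20, both with overlap.

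Of 14 tested collagen receptors 8 had higher and 6 lower diabetic means, with a median of 0.04. Adgrg6, an adhesion receptor that binds collagen IV, had 8.03, 6.78 and 6.42 in diabetic cells, against 5.51, 5.69 and 5.63 in nondiabetic cells. All diabetic arrays were higher, with replicate 1 far above the others, and the difference was 1.47 (SE 0.37), or 2.76-fold. Its limma adjusted p was 0.997, and the difference was 0.99 with diabetic replicate 1 left out. Antxr2, which binds collagen VI, differed by 0.48 with overlap, and Cd36, a scavenger receptor of fatty acids and collagen, by 0.22. With diabetic replicate 1 left out they differed by 0.21 and 0.14.

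Of 8 tested genes of collagen degradation 4 had higher and 4 lower diabetic means. The lysosomal cathepsin gene Ctsl had 11.23, 10.52 and 10.31 in diabetic cells, against 9.95, 10.06 and 10.17 in nondiabetic cells, and differed by 0.62 (SE 0.24) without overlap. Ctsb differed by 0.56 with overlap and Timp3, an inhibitor of metalloproteinases, by -0.23. With diabetic replicate 1 left out Ctsl differed by 0.35, Ctsb by 0.32 and Timp3 by -0.35, and with nondiabetic replicate 2 left out Timp3 differed by -0.11. The collagenase genes Mmp8 and Mmp13, the gelatinase gene Mmp9 and Ctsk, the collagen-cleaving cathepsin of osteoclasts, were dim. The collagenase gene Mmp14 and the gelatinase gene Mmp2 were above the dim limit and differed by 0.28 and 0.02, both with overlap.

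Of 14 tested matrix partners of collagen 10 had higher and 4 lower diabetic means, with a median of 0.09. Prelp, a proteoglycan that ties basement membrane to collagen, had 9.27, 8.66 and 8.74 in diabetic cells, against 8.43, 7.29 and 8.09 in nondiabetic cells, and differed by 0.95 (SE 0.31) without overlap. The difference of Prelp was 0.59 with the mean of its probe sets and 0.63 with nondiabetic replicate 2 left out. Tgfbi, which binds collagens and integrins, differed by 0.48 (SE 0.16), also without overlap, and Sparc by -0.04. Of 12 tested genes linked to TGF-beta and fibrosis 7 had higher and 5 lower diabetic means, with a median of 0.09. The contractile genes Tagln and Acta2, which mark mural cells as well, differed by 0.39 and 0.34 and Tgfb1 by 0.17, all with overlap. Among the genes with lower diabetic means, Tgfb2 differed by -0.60 and Tgfbr2 by -0.38, both with overlap. The highest Tgfb2 value was 8.21, in nondiabetic replicate 2. Tagln differed by 0.21 with nondiabetic replicate 1 left out, and with nondiabetic replicate 2 left out Acta2 differed by 0.17 and Tgfb1 by 0.0258. Leaving out nondiabetic replicate 3 gave 0.37 for Tgfb1. The tested markers of pericytes and smooth muscle averaged 7.41, 7.30 and 7.14 in diabetic and 7.41, 7.24 and 7.10 in nondiabetic arrays. Diabetic means were higher for 5 of these 10 markers and lower for 5.

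**Figure D5:**
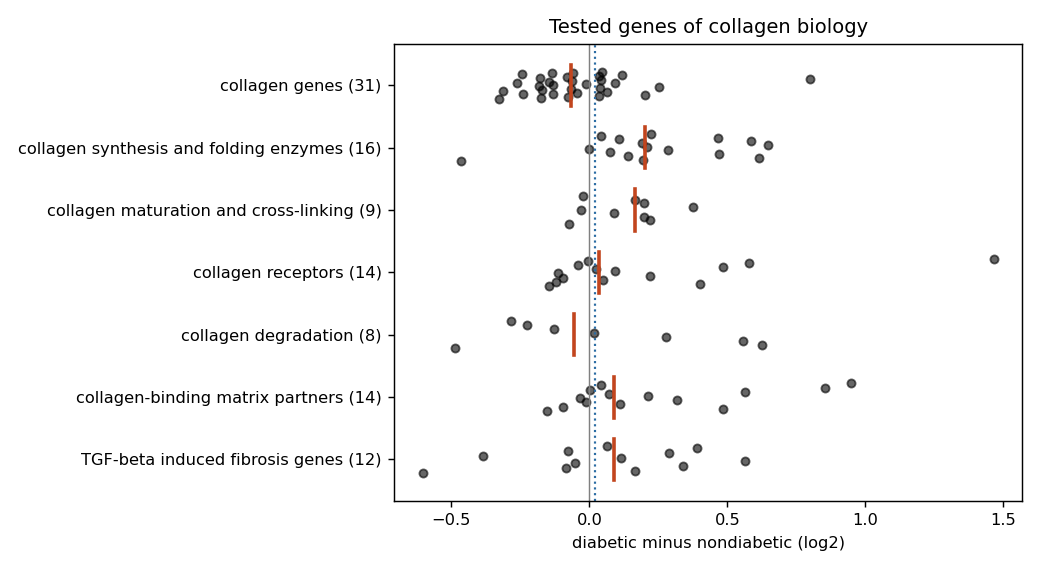
Differences, diabetic minus nondiabetic on the log2 scale, of the tested genes in 7 groups, with 1 point per gene, the median as a vertical bar and the median of all tested genes as a dotted line; the number of genes stands in parentheses. The medians run from -0.07 for the collagen genes to 0.20 for the synthesis enzymes, and 0 of the genes shown passed the adjusted test.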

How the data were processed

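Arrays of 6 samples measured RNA from endothelial cells sorted out of bone marrow. Per the labels' protocols, whole-transcriptome amplification (Ovation Pico WTA) came first, then biotin labelling and array hybridisation. Values deposited by the authors are log2 expression from RMA, per the submitters' processing notes. Software, version and build: not given in the sources used here.

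The table held 41345 probe sets with array medians between 5.21 and 5.28. Platform annotation, which can be old, named 1 gene for 23521 probe sets, several for 1814 and none here for 16010. All 44 collagen genes matched RefSeq by gene number and symbol. Genes were tested with limma 3.58.1 in R 4.3.3 (lmFit, eBayes, no covariates), with Benjamini and Hochberg adjustment over 13308 tested genes at a threshold of 0.05. The fit was tested on simulated data.

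The collagen genes, the 6 lists of collagen biology and the marker lists were chosen with earlier results of these data known. Of 263 list entries other than collagens 243 were measured. Values in every array are given for collagen genes whose groups do not overlap, for up to 3 genes of smallest p per structural class and for 10 vascular and fibrillar chains; in each of the 6 lists of collagen biology the 2 genes of smallest p and the gene of highest mean are named. That rule was written for the marker lists too, which are given here by array means and counts, with most of their genes not named. Dim genes named in the other lists fall outside this rule and were chosen after their values were seen. The same holds for Mmp2, Mmp14, Loxl1, Loxl4, Tgfb2 and Tgfbr2. Alternatives changed the filter (none, or the 60th percentile), the probe sets (their mean, or each of them), the scaling (a second quantile normalization, or centring on medians) and the model (trended, robust variances in eBayes, weights per array, or replicate number as a block), or left out single arrays. Deviations of same-numbered arrays from their group means correlated at -0.04, -0.06 and 0.02 across tested genes, and those of differently numbered arrays at -0.03 to 0.07. No shared effect of the replicate number was thus seen. Whether same-numbered samples were handled together is not settled by this or by the labels.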

Additional observations from a re-analysis of the deposited data

How the results depend on the processing

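The count of 0 collagen genes past the adjusted threshold was the same under all 15 alternatives. The 1 call over all genes, Rabggtb, was lost with the filter at the 60th percentile (0 genes) and without nondiabetic replicate 3. Leaving out single arrays gave 0 to 1 calls. Rabggtb averaged 3.32 in diabetic and 7.75 in nondiabetic cells. Its mean over the 6 arrays thus lay below the 60th percentile, 5.98, and that filter left it out untested. Whether it was still tested without nondiabetic replicate 3 is not given here. The median difference of the tested collagen genes was -0.17 with the filter at the 60th percentile, which left 11 of them to test. It ranged from -0.11 to 0.01 over the single arrays left out. Of the 11 genes, 2 had groups without overlap, against 5 of 31, and the share of all genes under that filter is not given here. With the replicate block the median was -0.07 and 0 collagen genes and 1 gene over all were called, and the block changed no call. Of the 25 collagen genes whose values are given by array, 14 kept their sign throughout. The sign of Col6a2 turned with array weights, at -0.0712. Signs also turned with single arrays left out, over ranges of -0.0531 to 0.21 for Col6a2, -0.24 to 0.0344 for Col10a1, -0.18 to 0.0247 for Col16a1, -0.0105 to 0.17 for Col1a1, -0.28 to 0.0238 for Col20a1, -0.0804 to 0.21 for Col26a1, -0.0131 to 0.14 for Col3a1, -0.53 to 0.16 for Col4a1, -0.16 to 0.0202 for Col4a2, -0.0033 to 0.23 for Col6a6, -0.28 to 0.0119 for Col7a1, -0.0674 to 0.17 for Ppib, -0.42 to 0.13 for Tgm2 and -0.17 to 0.0878 for Sparc. The cause of these turns in sign was not tested.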

Other observations

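RefSeq, GRCm38.p6, gave 38 promoter windows for 35 of the 44 collagen genes, each 300 bases long. GGGCGG, on either strand, was in 60.5% of these windows, against 35.7% of all windows, CCAAT in 34.2% against 37.4% and TATAAA in 13.2% against 13.6%. The median count of CpG sites was 11.5 per collagen window and 7 per window over all genes. Median GC content was 59.8% per collagen window and 52.7% per window over all genes. GGGCGG holds only G and C, and its share was not adjusted for GC content. The Col4a1 and Col4a2 windows share 78 bases and some genes have more than 1 window, so the windows are not independent. All of these are counts of letters, with no test. Collagen genes that follow each other on a chromosome were Col4a1 and Col4a2, Col4a3 and Col4a4, Col4a5 and Col4a6, Col6a1 and Col6a2, Col6a4, Col6a5 and Col6a6, Col3a1 and Col5a2, and Col9a1 and Col19a1.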
